A study of Homo sapiens with 8 samples.

Results

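The genes of cholesterol and fatty acid synthesis were followed by RNA-seq in LM2 cells, a triple-negative breast cancer line derived from MDA-MB-231 and selected for metastasis to the lung. A list of 35 gene symbols was matched to the gene rows of the count files, and all 35 were found among 58688 rows. The list held 18 enzymes of sterol synthesis, 6 genes that control the pathway or carry sterol inside the cell, 8 enzymes of fatty acid synthesis and 3 target genes of the liver X receptors (LXR). In the drug set, 2 DMSO samples stood against 2 samples given Ponatinib, a kinase inhibitor whose targets include ABL, at 1 µmol/L for 6 h. In the shRNA set, LM2 cells were kept with lentivirus for 48 h and the survivors of puromycin selection were harvested. They carried a scrambled shRNA (shCtrl), ABL1 shRNA, ABL2 shRNA or the shRNAs for both kinases (ABL1/ABL2 shRNA). Each of these 4 arms was 1 sample and each kinase was targeted by 1 shRNA. All groups were grown in DMEM with serum, which contains cholesterol and fatty acids.

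Cells build cholesterol from acetyl-CoA through mevalonate, isoprenoids, squalene and lanosterol. When sterol in the endoplasmic reticulum is scarce, SCAP carries the SREBP proteins, made from SREBF1 and SREBF2, to the Golgi, where they are cut to release transcription factors. INSIG proteins hold SCAP back when sterol is plentiful. SREBP-2 acts mostly on sterol genes and SREBP-1c mostly on fatty acid genes, while LXR, which senses oxysterols, turns on SREBF1 as well as genes of sterol efflux.

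The SREBP proteins bind sterol regulatory elements next to sites of NF-Y, which reads the letters CCAAT, so the promoters of members that carry the main results are shown. RefSeq promoters (GRCh38.p14) were found for 30 of the 35 genes. The 250 bases before the start site are printed 5′ to 3′ on the strand of the gene, and capitals mark CCAAT or its reverse complement ATTGG and, in SREBF2, the letters TCACNCCAC of a sterol regulatory element. HMGCS1 (minus strand, chr5:43313413-43313662) and DHCR7 (minus strand, chr11:71448394-71448643) had the lowest single ratios to shCtrl among the sterol enzymes after ABL knockdown. SCD (plus strand, chr10:100346983-100347232) and SREBF1 (minus strand, chr17:17836987-17837236) changed most with Ponatinib among the fatty acid and control genes, and SREBF2 (plus strand, chr22:41832855-41833104) encodes the regulator itself.
HMGCS1: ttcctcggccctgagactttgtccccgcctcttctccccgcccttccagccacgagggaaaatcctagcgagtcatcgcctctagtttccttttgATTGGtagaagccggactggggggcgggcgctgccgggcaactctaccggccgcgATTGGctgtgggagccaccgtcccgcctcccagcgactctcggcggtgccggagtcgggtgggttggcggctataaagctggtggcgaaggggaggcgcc
DHCR7: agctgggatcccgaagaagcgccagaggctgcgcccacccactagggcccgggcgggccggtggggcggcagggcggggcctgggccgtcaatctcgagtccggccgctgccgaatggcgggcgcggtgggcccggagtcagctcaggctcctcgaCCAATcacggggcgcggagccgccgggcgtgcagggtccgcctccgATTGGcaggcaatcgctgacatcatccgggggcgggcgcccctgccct
SCD: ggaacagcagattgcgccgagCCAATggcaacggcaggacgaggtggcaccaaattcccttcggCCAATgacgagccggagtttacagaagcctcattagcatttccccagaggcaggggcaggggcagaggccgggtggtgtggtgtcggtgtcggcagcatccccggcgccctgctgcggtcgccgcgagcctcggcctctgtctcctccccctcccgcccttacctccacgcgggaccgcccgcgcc
SREBF1: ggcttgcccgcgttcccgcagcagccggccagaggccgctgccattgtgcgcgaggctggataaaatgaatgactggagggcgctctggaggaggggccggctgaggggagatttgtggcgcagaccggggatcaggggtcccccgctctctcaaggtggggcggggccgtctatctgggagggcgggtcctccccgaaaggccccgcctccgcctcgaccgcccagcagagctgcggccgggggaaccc
SREBF2: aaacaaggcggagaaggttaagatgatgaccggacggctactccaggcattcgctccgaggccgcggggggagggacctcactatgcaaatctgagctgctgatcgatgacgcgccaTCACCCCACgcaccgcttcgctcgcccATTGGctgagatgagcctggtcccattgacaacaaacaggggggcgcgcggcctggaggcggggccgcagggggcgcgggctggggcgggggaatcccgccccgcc

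Both HMGCS1 and DHCR7 held CCAAT letters at 2 places in the window of 300 bases, 250 before and 50 after the start, and so did SCD. SREBF1 held neither motif. With both strands searched, CCAAT was present in 19 of the 30 member promoters (63.3%) and in 12 of 15 sterol promoters, against 35.7% of 27305 RefSeq promoters of that length. TCACNCCAC was found in SREBF2 alone among the members (3.33%) and in 1.15% of all promoters. A match of letters is not evidence of binding, and the absence of a match concerns this window only. A single RefSeq start was used for each gene, so promoters at other starts, of SREBF1 or of any other member, were not searched.

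The 8 libraries held 7568934 to 13010896 counts on genes, so 3 counts corresponded to 0.231 to 0.396 CPM, that is, counts scaled to library size. Levels below are normalized CPM unless stated otherwise. The shCtrl sample held ABL1 at 190.1 (95% Wilson interval 182 to 198), and the ABL1, ABL2 and double arms at 72.8, 203 and 109. ABL2 was at 236 in shCtrl and at 213, 93.6 and 148 in the same order. Each kinase was therefore lower in the arms that target it, and less so in the arm with both shRNAs. In the drug set, ABL1 was at 166 and 163 in DMSO and at 183 and 194 with Ponatinib. ABL2 was at 335 and 306 in DMSO and at 148 and 169 with Ponatinib, so its transcript was lower with the drug as well. The column heading inside the shCtrl file reads shabl1 and that inside the ABL1 shRNA file reads NC, as if the names had been exchanged. The sample labels were followed, which the ABL1 levels fit. With the headings in their place, the ABL1 shRNA ratios would change sign and the other arms would be set against another control. VIM (1879 to 3145), CD44 (491 to 755) and KRT18 (144 to 311) were high in every library. The epithelial gene CDH1 did not pass 1.78, and PGR was at 0 counts throughout. PECAM1 was at 2.34 to 3.99 in the drug set and at 20.5 in shCtrl and 30.7, 39.7 and 32.4 in the ABL1, ABL2 and double arms. The other endothelial marker, CDH5, did not pass 0.247, nor the leukocyte gene PTPRC 0.264. PLIN1, a gene of lipid-storing cells, was at 0.13 to 3.16, while the other adipocyte and liver markers, ADIPOQ, ALB and APOA1, did not pass 0.38. The part of these differences in the results below was not tested.

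Per kb of exon, the level in DMSO cells was highest for SCD, the desaturase that makes oleate, at 123 CPM per kb. INSIG1 followed at 65.2, ACLY, which makes cytosolic acetyl-CoA from citrate, at 63.6, the sterol isomerase EBP at 62.1 and the methyl sterol oxidase MSMO1 at 61.2. The lowest 4 were CYP51A1 at 2.035, TM7SF2 at 1.962, ABCA1 at 0.6185 and ABCG1 at 0.0610. Of the exonic bases of CYP51A1, the lanosterol demethylase, 74.1% are shared with other annotated genes, AKAP9 among them. HMGCS1 (37.7%), EBP (36.4%) and ACAT2 (22.2%) also overlap other genes, and FDPS and HSD17B7 have close pseudogene copies, so that reads of these genes could be lost or misassigned in counting. These shares are from GENCODE 44 with both strands included. The counts carry older versions of the gene identifiers, so the overlaps in force at counting may have been smaller or different.

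To ask how the pathway responded to Ponatinib, each gene was compared with DMSO across the table. SREBF1, SCD, HMGCS1, INSIG1 and the sterol exporter ABCA1 rose, while most synthesis enzymes did not pass the test. Of 34 members tested, 10 rose and 2 fell at an adjusted p under 0.05 (quasi-likelihood test of edgeR, adjusted by Benjamini-Hochberg over 16031 genes), which is 29.4% and 5.88% of them against 15% and 15.7% of all genes tested. The median log2 fold change of the members was 0.10 and that of all genes was -0.0047. The sterol enzymes counted 4 higher and 2 lower of 18 with a median of 0.07, the control genes 3 higher of 6 with a median of 0.17, the fatty acid enzymes 2 higher of 8 with a median of -0.07, and the LXR targets 1 higher of 2. With all 4 samples, 0 control, fatty acid or LXR genes fell by edgeR, by DESeq2 or at an unadjusted p under 0.05. Without Ponatinib replicate 2, FASN (adjusted p = 1.33e-05 by edgeR) and ACACA (adjusted p = 0.0112) were called lower. Leaving out a sample leaves 1 in its group, which is then assumed to vary like the other pair, so a call lost there need not be a smaller change. Without DMSO replicate 1 the count of genes that rose was 6, and it was also 6 without DMSO replicate 2. The count that fell ranged from 0 without DMSO replicate 1 to 5 without Ponatinib replicate 1 and was 1 without DMSO replicate 2. The replicates are not stated to be separate cultures, so p-values measure only the spread between these samples.

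**Figure D1:**
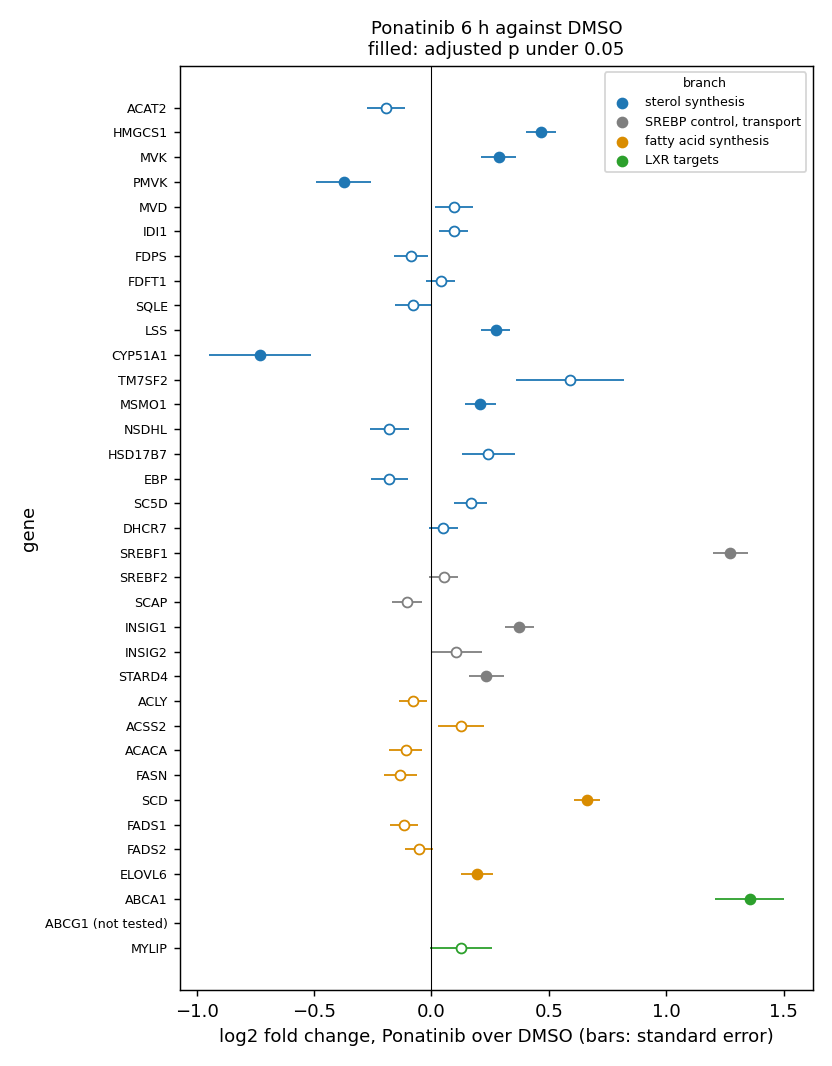
Log2 fold change of each of 34 members, Ponatinib over DMSO (x axis), with the standard error as bars. Colours give the branch and filled points an adjusted p under 0.05. SREBF1 (1.27) and ABCA1 (1.36) lie furthest to the right, and CYP51A1 (-0.73) furthest to the left.

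Both Ponatinib samples lay above both DMSO samples for 15 of the 34 members (44.1%), against 32.1% of all genes tested. Both lay below for 10 members (29.4%), against 32.8% of all genes. Summed over each branch, normalized CPM was 1802 and 1837 in DMSO and 1966 and 1889 with Ponatinib for the sterol enzymes, a ratio of 1.06. The fatty acid enzymes summed to 2289 and 2406 in DMSO and to 2609 and 2669 with Ponatinib, a ratio of 1.12. SCD alone made up 633 and 659.9 of these sums in DMSO and 1018 and 1028 with Ponatinib, a larger rise than that of the sum. The median log2 fold change of the fatty acid enzymes was -0.07, so the higher sum does not describe the branch as a whole. By the stricter rule of a fold over 2 with an unadjusted p under 0.05, which 5.48% of all genes met, 2 members rose, SREBF1 and ABCA1, and 0 fell.

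Among the mevalonate enzymes, HMGCS1, which joins acetyl-CoA units into HMG-CoA, was at 107 and 114 in DMSO and at 156 and 149.7 with Ponatinib. It rose 1.38-fold, a log2 fold change of 0.47 ± 0.07 (SE, n = 2 per group, adjusted p = 7.28e-05 by edgeR). MVK, mevalonate kinase, was at 63.8 and 58.7 in DMSO and at 75.6 and 73.9 with Ponatinib. Neither gene overlapped between groups. MVK rose by 0.29 ± 0.07 on the log2 scale (adjusted p = 0.00842 by edgeR), a call lost without DMSO replicate 2 (adjusted p = 0.173) and by DESeq2 (adjusted p = 0.0608). PMVK, the next kinase of the chain, went the other way, at 26.6 and 27.6 in DMSO and at 22.9 and 18.5 with Ponatinib. It fell by 0.37 ± 0.12 (adjusted p = 0.0250 by edgeR), a call lost by DESeq2 (adjusted p = 0.137) and without any of DMSO replicate 1 (log2 fold change -0.40), DMSO replicate 2 (-0.35) or Ponatinib replicate 2 (-0.25). ACAT2, MVD, IDI1 and FDPS did not pass the test, with log2 fold changes from -0.19 for ACAT2 to 0.10 for MVD.

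From squalene on, LSS, which closes the sterol rings, was at 187 and 196 in DMSO and at 227 and 237 with Ponatinib, without overlap. It rose 1.21-fold (0.27 ± 0.06 on the log2 scale, adjusted p = 0.00368 by edgeR), a call lost without DMSO replicate 1 (adjusted p = 0.132). MSMO1 was at 166 and 183 in DMSO and at 198 and 204 with Ponatinib, also without overlap. It rose by 0.21 ± 0.07 (adjusted p = 0.0265 by edgeR), and the call was lost by DESeq2 (adjusted p = 0.0745), without DMSO replicate 1 (adjusted p = 0.426) and without DMSO replicate 2 (adjusted p = 0.0652). CYP51A1 was low, at 10.1 and 6.89 in DMSO and at 5.42 and 4.82 with Ponatinib, from 37 to 114 counts. Its log2 fold change was -0.73 ± 0.22 (adjusted p = 0.0187 by edgeR), a call lost by DESeq2 (adjusted p = 0.118) and without DMSO replicate 1 (adjusted p = 0.311), and most of its exonic bases are shared with other genes. TM7SF2, a sterol reductase, was at 6.99 and 6.38 in DMSO but at 12.6 and 6.90 with Ponatinib, so the rise seen in 1 sample was almost absent in the other (0.59 ± 0.23, adjusted p = 0.0662 by edgeR). FDFT1, SQLE, NSDHL, HSD17B7, EBP, SC5D and DHCR7 did not pass the test, with log2 fold changes from -0.18 for EBP and NSDHL to 0.24 for HSD17B7. DHCR7, the last enzyme before cholesterol on its branch, was at 167 and 166 in DMSO and at 170.4 and 175 with Ponatinib.

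The largest change among the regulators was in SREBF1, at 63.8 and 73.9 in DMSO and at 166 and 166 with Ponatinib. It rose 2.42-fold (1.27 ± 0.07 on the log2 scale, adjusted p = 7.59e-09 by edgeR). SREBF2 was at 209 and 213 in DMSO and at 213 and 225 with Ponatinib and did not pass the test (0.05 ± 0.06). The gene of one SREBP thus more than doubled while that of the other was not shown to differ. INSIG1, itself a target of the SREBPs, was at 227 and 248.7 in DMSO and at 309 and 308 with Ponatinib. It rose by 0.37 ± 0.06 (adjusted p = 3.69e-04 by edgeR). STARD4, a carrier of cholesterol between membranes, was at 119 and 117 in DMSO and at 129 and 149 with Ponatinib. The groups did not overlap and STARD4 rose by 0.23 ± 0.07 (adjusted p = 0.0252 by edgeR), but the call was lost by DESeq2 (adjusted p = 0.0797) and without any of DMSO replicate 1, DMSO replicate 2 or Ponatinib replicate 2. SCAP (-0.10) and INSIG2 (0.11) did not pass the test.

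In the fatty acid branch, SCD rose without FASN. SCD was at 633 and 659.9 in DMSO and at 1018 and 1028 with Ponatinib. Both treated samples stood well above both controls, and SCD rose 1.58-fold (0.66 ± 0.06 on the log2 scale, adjusted p = 4.71e-07 by edgeR). FASN, which builds palmitate, was at 483 and 529 in DMSO and at 435 and 489.9 with Ponatinib, where the groups overlapped (-0.13 ± 0.07). ELOVL6, which lengthens palmitate, was at 98.2 and 106 in DMSO and at 118 and 115 with Ponatinib. It rose by 0.19 ± 0.07 (adjusted p = 0.0434 by edgeR), a call lost by DESeq2, without DMSO replicate 1, without DMSO replicate 2, without the filter on low counts and with all 8 samples in the fit. ACLY, ACSS2, ACACA, FADS1 and FADS2 did not pass the test, with log2 fold changes between -0.12 for FADS1 and 0.13 for ACSS2.

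Among the LXR targets, ABCA1 was at 6.64 and 7.39 in DMSO and at 17.9 and 18.0 with Ponatinib. It rose 2.56-fold (1.36 ± 0.15 on the log2 scale, adjusted p = 5.17e-06 by edgeR). The groups were far apart, although the level was low, at 73 to 188 counts. ABCG1, its partner in efflux to lipoproteins, had 5 and 3 counts in DMSO and 9 and 9 with Ponatinib and was too low to be tested. MYLIP, a ubiquitin ligase for lipoprotein receptors, was at 15.8 and 15.8 in DMSO and at 18.7 and 15.5 with Ponatinib (0.13 ± 0.13). SREBF1, SCD, HMGCS1, INSIG1 and ABCA1 passed the threshold under each of the 11 alternative settings judged by adjusted p, of which 4 leave 1 sample in a group. By the rule of a fold over 2 with an unadjusted p, only SREBF1 and ABCA1 passed, and SCD, HMGCS1 and INSIG1 did not.

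**Figure D2:**
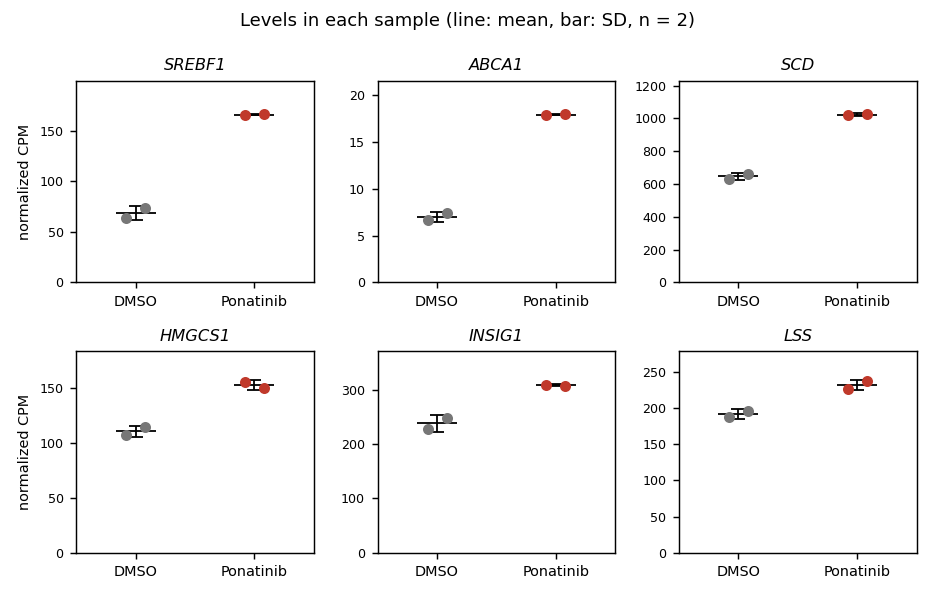
Normalized CPM (y axis from 0) of SREBF1, ABCA1, SCD, HMGCS1, INSIG1 and LSS, with 1 point per sample, a line at the mean and the SD as a bar (n = 2 per group). SREBF1 goes from 63.8 and 73.9 to 166 and 166, and ABCA1 from 6.64 and 7.39 to 17.9 and 18.0.

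A further list of 27 lipid genes, which held sterol transport, LXR and SREBP processing, acyl-CoA and elongation genes, was set beside the members. With Ponatinib 5 of its 26 tested genes rose (19.2%) and 4 fell (15.4%), near the 15% and 15.7% of all genes. ACACB, the acetyl-CoA carboxylase of the mitochondrial surface, rose by 1.33 on the log2 scale, and ME1, malic enzyme, by 0.54. ELOVL1, which makes very long chains, fell by 0.71, and NPC1, which exports cholesterol from lysosomes, fell by 0.30.

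To ask whether loss of the ABL kinases did the same, each knockdown was compared with shCtrl. The sterol enzymes had medians below shCtrl in all 3 arms, led by HMGCS1, DHCR7, LSS, SQLE and ACAT2. With Ponatinib HMGCS1 and LSS rose, while DHCR7 (0.05), SQLE (-0.08) and ACAT2 (-0.19) did not pass the test. Each arm was 1 sample, so no test was made within the set, and a gene was counted when its ratio passed 1.5-fold. With ABL1 shRNA 10 members were lower and 3 higher, where 11.5% of all genes were lower and 12.6% higher. With ABL2 shRNA 6 were lower and 2 higher, where 8.31% of all genes were lower and 11.8% higher. With both shRNAs 9 were lower and 1 higher, where 9.65% of all genes were lower and 12% higher. The 3 arms share the shCtrl sample, so that a feature of that sample and an effect of the knockdowns cannot be told apart.

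The sterol enzymes made up most of these counts, with 9, 6 and 8 of 18 lower in the ABL1, ABL2 and double arms, and 0 higher in any arm. Their median log2 ratio was -0.60, -0.45 and -0.55, against 0.0029, -0.0058 and 3e-04 for all genes. The shCtrl sample was the highest of the 4 for 13 of 18 sterol enzymes (72.2%) and for 5 of 8 fatty acid enzymes (62.5%), against 29.5% of all genes, and the lowest for 0 sterol enzymes, against 29.6% of all genes. Intervals from counting error lay wholly below 0 for 13, 13 and 14 of the 18, against 24%, 22.1% and 22.4% of all genes. They lay wholly above 0 for MVK with ABL1 shRNA, for TM7SF2 with ABL2 shRNA and for 0 with both, against 22.7%, 19.9% and 20.9% of all genes. Such intervals say nothing of variation between cultures. Past 2-fold, 2, 3 and 3 members were lower, where 4.2%, 3.2% and 3.4% of all genes were, and 1, 0 and 1 were higher, where 4.85%, 4.72% and 4.53% were. Those lower were HMGCS1 in all 3 arms, DHCR7 in the ABL1 and double arms, SQLE in the ABL2 and double arms and LSS with ABL2 shRNA, and the one higher was ABCG1.

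**Figure D3:**
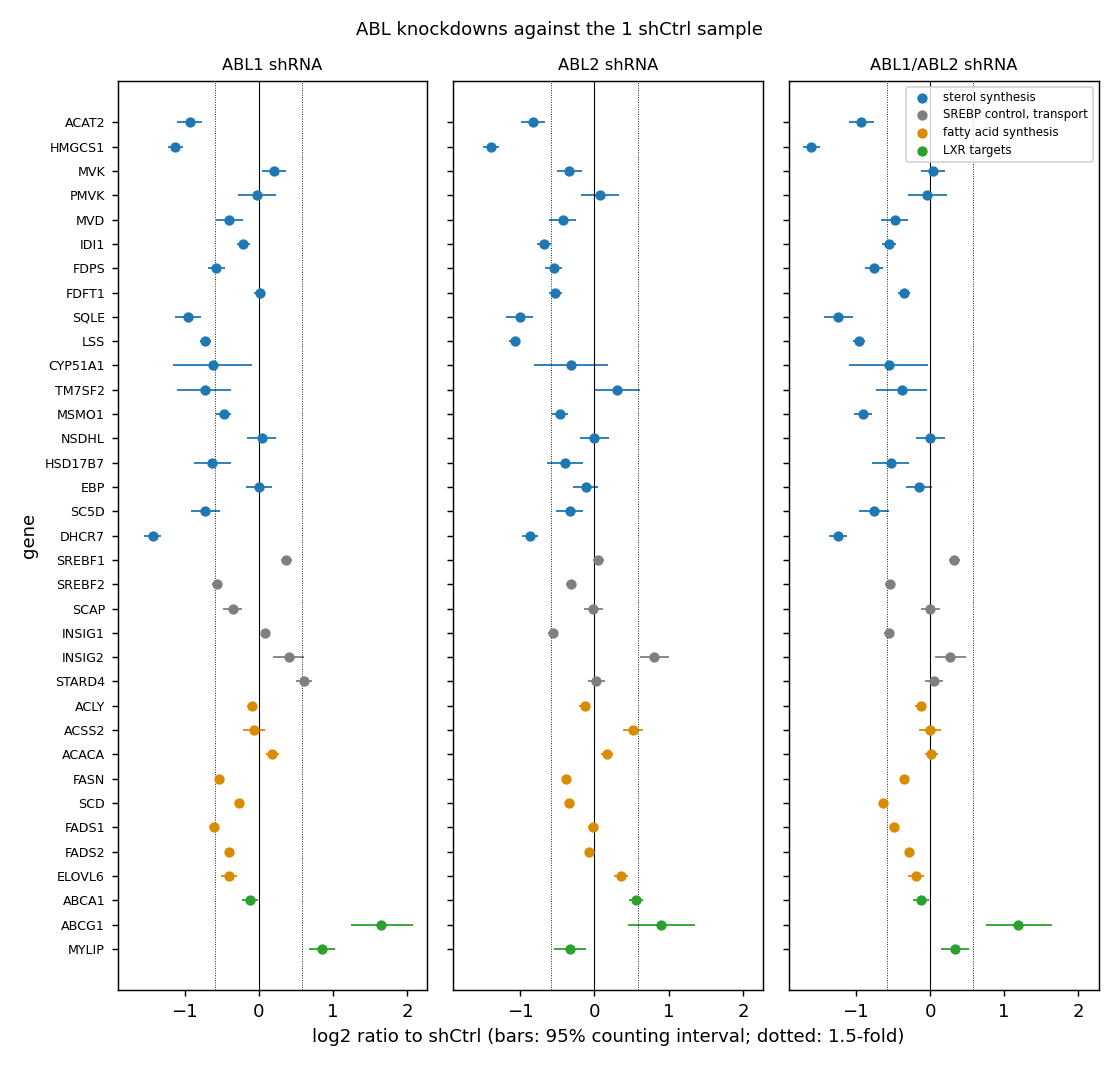
Log2 ratio of normalized CPM to the 1 shCtrl sample (x axis) for all 35 members in the ABL1, ABL2 and double knockdown arms, with 95% counting intervals as bars and dotted lines at 1.5-fold. HMGCS1, DHCR7, LSS, SQLE and ACAT2 lie left of the lower line in all 3 panels.

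HMGCS1 was at 209 in shCtrl and at 95.8, 79.3 and 69.1 in the ABL1, ABL2 and double arms. Its log2 ratios were -1.13 (95% counting interval -1.23 to -1.03), -1.40 (-1.51 to -1.29) and -1.60 (-1.71 to -1.48). All 3 arms were more than 2-fold below the control, and the arm with both shRNAs was the lowest. DHCR7 was at 169 in shCtrl and at 62.6, 92.3 and 71.5 in these arms. Its log2 ratios were -1.43 (-1.55 to -1.31), -0.87 (-0.98 to -0.77) and -1.24 (-1.36 to -1.12), so here the ABL1 shRNA sample was the lowest.

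SQLE, the epoxidase that makes the first oxygenated sterol precursor, was at 62.6 in shCtrl and at 32.3, 31.1 and 26.6 in the ABL1, ABL2 and double arms. Its log2 ratios were -0.95 (-1.13 to -0.78), -1.01 (-1.19 to -0.83) and -1.23 (-1.43 to -1.04). The 3 knockdown samples lay close together and far from the control. LSS was at 346 in shCtrl and at 209.6, 164 and 178 in the same order, with log2 ratios of -0.72, -1.08 and -0.95. ACAT2, which condenses acetyl-CoA at the head of the pathway, was at 71.0 in shCtrl and at 37.2, 39.9 and 37.3, with log2 ratios of -0.93, -0.83 and -0.93. SC5D, a desaturase of the sterol ring, was at 46.3 in shCtrl and at 28.1, 36.7 and 27.5, and passed 1.5-fold in the ABL1 and double arms (-0.72 and -0.75) but not with ABL2 shRNA (-0.33).

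Other sterol enzymes passed 1.5-fold in 1 arm each. These were CYP51A1 (-0.62), TM7SF2 (-0.73) and HSD17B7 (-0.63) with ABL1 shRNA, IDI1 (-0.68) with ABL2 shRNA, and FDPS (-0.75) and MSMO1 (-0.90) with both. TM7SF2 was above shCtrl with ABL2 shRNA (0.31, 95% counting interval 0.0049 to 0.62). MVK, PMVK, MVD, FDFT1, NSDHL and EBP passed it in none of the 3 arms, with log2 ratios from -0.53 for FDFT1 with ABL2 shRNA to 0.20 for MVK with ABL1 shRNA. NSDHL, a decarboxylase that acts between CYP51A1 and EBP, was at 35.4 in shCtrl and at 36.3, 35.4 and 35.5. The sum over the sterol enzymes was 1864 in shCtrl and 1297, 1146 and 1105 in the ABL1, ABL2 and double arms, or 0.695, 0.6145 and 0.593 of the control.

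**Figure D4:**
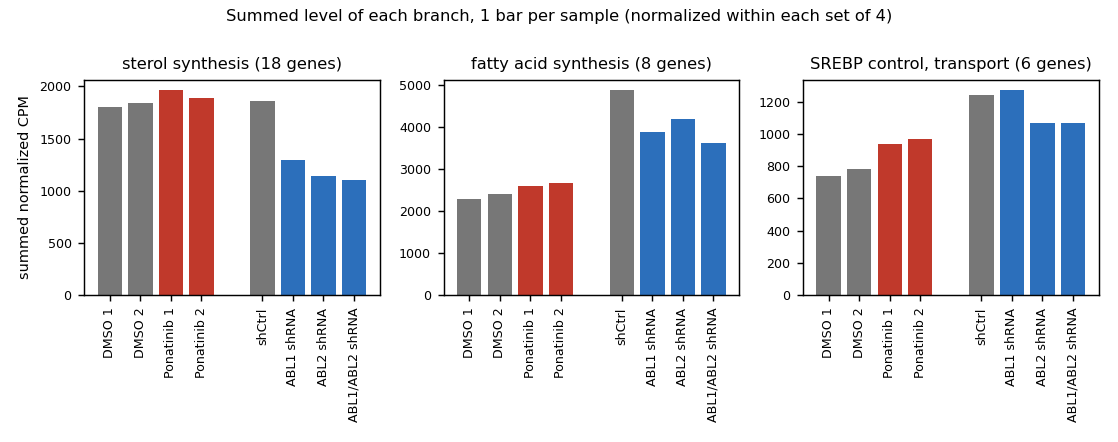
Summed normalized CPM (y axis from 0) of the sterol enzymes, the fatty acid enzymes and the control genes, with 1 bar per sample. The drug and shRNA sets were normalized separately. The sterol sum was 1864 in shCtrl and 1105 to 1297 in the knockdown arms, and 1802 to 1966 in the drug set.

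The control genes did not follow the enzymes as a group, with median log2 ratios of 0.22, 0.0049 and 0.03. SREBF2 was at 330.0 in shCtrl and at 223, 265 and 227 in the ABL1, ABL2 and double arms (-0.56, -0.32 and -0.54). SREBF1 was at 245 in shCtrl and at 316, 254 and 308 (0.37, 0.05 and 0.33). The genes of the SREBPs thus lay on opposite sides of shCtrl, except that SREBF1 with ABL2 shRNA was within counting error of it (-0.02 to 0.12). INSIG1 was at 445 in shCtrl and at 469, 302 and 303 (0.08, -0.56 and -0.55). INSIG2 passed 1.5-fold upward with ABL2 shRNA (0.81) and STARD4 with ABL1 shRNA (0.61). SCAP lay between -0.35 with ABL1 shRNA and 0.01 with both.

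The fatty acid enzymes lay nearer to the control, with medians of -0.34, -0.05 and -0.24 and 1, 0 and 1 of 8 lower past 1.5-fold. Their counting intervals still lay wholly below 0 for 6, 4 and 6 of the 8, against 24%, 22.1% and 22.4% of all genes. They lay wholly above 0 for 1, 3 and 0, against 22.7%, 19.9% and 20.9% of all genes. SCD was at 2274 in shCtrl and at 1883, 1800 and 1473 in the ABL1, ABL2 and double arms, and passed 1.5-fold with both shRNAs (-0.63). FASN was at 1011 in shCtrl and at 695, 771 and 792 (-0.54, -0.39 and -0.35). FADS1, the delta-5 desaturase, passed 1.5-fold with ABL1 shRNA (-0.61) and was at -0.03 with ABL2 shRNA. ELOVL6 was on either side of the control, at -0.40 with ABL1 shRNA and 0.36 with ABL2 shRNA. ACLY, ACSS2, ACACA and FADS2 did not pass 1.5-fold, with log2 ratios from -0.40 for FADS2 with ABL1 shRNA to 0.52 for ACSS2 with ABL2 shRNA. The branch summed to 4885 in shCtrl and to 3891, 4194 and 3620.5, or 0.7965, 0.859 and 0.741 of the control.

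Among the LXR targets, ABCG1 was higher past 1.5-fold in all 3 arms, at 5.46 in shCtrl and 17.1, 10.2 and 12.4 in the ABL1, ABL2 and double arms, from 62 to 222 counts. Its log2 ratios were 1.64 (1.24 to 2.08), 0.89 (0.45 to 1.36) and 1.18 (0.75 to 1.64). ABCA1 was at 126 in shCtrl and at 116, 185 and 115, so it was higher with ABL2 shRNA (0.56) and slightly lower in the others (-0.12 and -0.13). MYLIP was at 34.0 in shCtrl and at 61.1, 27.1 and 42.9 (0.85, -0.33 and 0.34). The 3 LXR targets thus had no common direction.

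In an edgeR fit of all 8 samples the spread came only from the DMSO and Ponatinib pairs, so its calls at an adjusted p under 0.05 compare single libraries and add no support to the counts above. With ABL1 shRNA 5 were higher and 18 lower, where 10.6% and 11.4% of all genes were called. With ABL2 shRNA 5 were higher and 15 lower, where 7.89% and 7.68% were called. With both, 2 were higher and 18 lower, where 8.43% and 9.42% were called. Of the further 27 lipid genes 26 were measured, and 3, 0 and 4 were lower past 1.5-fold in the ABL1, ABL2 and double arms. None was higher. Of all genes, 11.5%, 8.31% and 9.65% were lower past 1.5-fold, and 12.6%, 11.8% and 12% higher. SLC25A1, which exports the citrate that ACLY uses, was at -0.92, -0.41 and -0.75, and SOAT1, which esterifies cholesterol, at -0.84, -0.16 and -0.64.

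Side by side, HMGCS1 was at 0.47 with Ponatinib and at -1.13, -1.40 and -1.60 in the ABL1, ABL2 and double arms. LSS was at 0.27 and at -0.72, -1.08 and -0.95, and DHCR7 at 0.05 and at -1.43, -0.87 and -1.24. SQLE was at -0.08 and at -0.95, -1.01 and -1.23, and ACAT2 at -0.19 and at -0.93, -0.83 and -0.93. DHCR7, SQLE and ACAT2 did not pass the test with Ponatinib. SREBF1 was at 1.27 with Ponatinib and at 0.37, 0.05 and 0.33. The drug was given for 6 h and the knockdown lines were selected, so times differ and the difference between them was not tested.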

How the data were processed

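RNA-seq libraries (NEBNext Ultra kit, Illumina sequencing) were mapped by the authors to hg38 with Bowtie/TopHat, and reads per gene were deposited as raw counts made with HTSeq 0.6.0. The counting mode and strand setting are not given in the sources used here. Of 58688 gene rows, 54836 matched a symbol. In the shRNA files, rows that name no gene held 9.48% to 9.90% of reads as no feature and 6.12% to 6.32% as ambiguous, and these stayed out.

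Ponatinib was compared with DMSO in edgeR 4.0.16 (R 4.3.3; TMM, filterByExpr, prior count 0.125, quasi-likelihood test, two-sided, Benjamini-Hochberg over 16031 genes), and the standard error is the log2 fold change over the root of F. On simulated data 98% of 2-fold and 90% of 1.5-fold changes were recovered for this comparison, with 15801 genes in the fit. The changed genes were drawn from those above a minimum level, with the same dispersion for all genes. The recovery need not hold for low or variable members. Knockdowns, with 1 sample per arm, were given as log2 ratios of TMM-normalized CPM (prior count 0.5) over the 16329 genes with at least 10 counts in 1 of the 4 samples, with exact 95% counting intervals. Intervals cover counting error only. Exon lengths and overlaps came from GENCODE 44. The members and lists were chosen with earlier results of these data known. All 35 members are named, with full values for those past the threshold with Ponatinib or past 1.5-fold in at least 2 knockdowns. Alternatives were DESeq2 1.42.0, other scaling, filters and prior counts, a replicate block, all 8 samples and leaving out each sample.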

Additional observations from a re-analysis of the deposited data

How the results depend on the processing

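With 10 members higher and 2 lower with Ponatinib, leaving out 1 sample gave 6 to 10 higher and 0 to 5 lower, DESeq2 gave 6 and 0, and the rule of a fold over 2 with an unadjusted p gave 2 and 0. The replicate block gave 10 and 3, with ELOVL6 lost (adjusted p = 0.0517 by edgeR) and TM7SF2 (0.0332) and ACAT2 (0.0432) gained. Deviations of same-numbered samples had r = 0.0228 over 16031 genes, and with only 2 pairs the numbers were not taken as pairing. The median log2 fold change of the LXR targets, 0.74, was 1.34 without the filter on low counts and 1.34 with all 8 samples, where ABCG1 enters, and 0.80 to 1.37 when 1 sample was left out. At a fold of 2 the knockdowns counted 1 higher and 2 lower (ABL1 shRNA), 0 and 3 (ABL2 shRNA) and 1 and 3 (both). In the fit of all 8 samples they counted 5 and 18, 5 and 15, and 2 and 18. The median of the control genes with ABL2 shRNA, 0.0049, was -0.0052 without the filter. That of all members moved by a similar amount in the same direction, from -0.3169 to -0.3269. The cause was not tested. No knockdown could be recomputed without a sample, since each arm was 1 sample. ABCG1 in the drug set and CYP51A1 throughout had few counts, and for CYP51A1 depth and reads shared with overlapping genes cannot be told apart.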

Other observations

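The shCtrl sample and the DMSO samples are both control LM2 cells, but their levels differed in several members. In plain CPM, SREBF1 was at 67.6 in DMSO (mean of 2) and 239.6 in shCtrl, and SCD at 634.7 and 2225. FASN was at 497 and 989. ABCA1 was at 6.89 and 123, or 17.8 times as high in shCtrl, and ABCG1 at 0.3665 and 5.34. EBP went the other way, at 108 and 46.4. Of the sterol enzymes that led the knockdown arms, HMGCS1 was at 109 in DMSO and 205 in shCtrl, and LSS at 188 and 338. DHCR7 was at 164 and 165, SQLE at 52.2 and 61.2, and ACAT2 at 123 and 69.4. The ratios to shCtrl of HMGCS1 and LSS thus start from a control level above that of DMSO. Virus, selection and any difference in sequencing cannot be told apart here, and shCtrl was 1 sample. Whether the drug and shRNA libraries were sequenced together is not stated.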
